A study of Mus musculus with 24 samples.

Results

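Malat1, Neat1 and Miat are 3 long noncoding RNAs that stay in the nucleus, and their counts were followed through the prenatal and newborn mouse lens. They are 3 of the 12611 genes in the count table. They were picked by symbol, with their higher level in lens fibers than in lens epithelium already known, so the difference between these tissues is given as a description with no test. All 3 passed the filter on low counts, which left 12427 genes to test. The total RNA, depleted of ribosomal RNA, came from lens fiber and lens epithelium that were microdissected from mice of the strain CD1. Both tissues were taken from embryos (stages E14.5, E16.5 and E18.5, in days of gestation) and from newborns (P0.5, in days after birth). Each of the 8 groups holds 3 biological replicates, which makes 24 libraries, and the labels name no treatment, transgene or deletion. The sources used here do not state how many animals went into a replicate.

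The lens grows when epithelial cells at its equator leave the cell cycle, elongate into fibers, fill with crystallins and later lose their nuclei and other organelles. Malat1 is among the most abundant nuclear RNAs of mammalian cells and gathers in nuclear speckles, the compartments that store splicing factors. Neat1 is the scaffold around which paraspeckles assemble: its long isoform builds the body and its short, polyadenylated isoform overlaps the first part of the long one. Miat, also known as Gomafu or Rncr2, was described in neurons and in the retina, where it forms nuclear spots outside speckles and paraspeckles and carries repeats that match the branch point sequence bound by the splicing factor SF1.

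In the GENCODE M21 annotation of GRCm38, the assembly also called mm10, Malat1 lies on the minus strand at chr19:5795690-5802672 as a lincRNA of 1 exon and 6983 bases. Neat1 lies on the same strand at chr19:5824708-5845478, only 22.0 kb away, and its longest transcript is 1 exon of 20771 bases. Miat lies on another chromosome, on the minus strand at chr5:112213228-112229395, with 6 annotated transcripts, the longest of which has 7 exons and 9163 bases. The GC content of the longest transcripts was 42.5% for Malat1, 47.3% for Neat1 and 55.1% for Miat. An annotated gene on the opposite strand overlaps Malat1 (Gm37376) and Miat (Gm26953). Neither has a row in the table, and the sources used here do not say how strand was treated when reads were counted, so the values may include reads of these antisense genes. The 4 annotated Neat1 transcripts share 1 row, so the short and the long isoform cannot be told apart in these counts.

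A stretch of each RNA, read from the GENCODE transcripts, shows the feature for which it is known. The Miat stretch, chr5:112217319-112217478 on the minus strand, lies in exon 7 of the 7 exons of transcript Miat-205 and is the window of 160 bases with the most ACTAAC. Capitals mark its 4 ACTAAC matches, 3 of them the full TACTAAC. The Malat1 stretch, chr19:5795924-5796072 on the minus strand, holds the end of the mature nuclear RNA and the small tRNA-like RNA of 58 bases that is cut from it, which RefSeq lists as Mascrna. Capitals mark 6 runs of at least 4 T and a run of 12 A, in the U-rich and A-rich stretches known to form the triple helix that protects the end of the RNA. The Neat1 stretch, chr19:5842307-5842426 on the minus strand, is the last 120 bases of the short transcript Neat1-202, and capitals mark 3 TGTA, the core of the site bound by the cleavage factor that favours the short isoform, and 1 AATAAA, the polyadenylation signal.

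Miat: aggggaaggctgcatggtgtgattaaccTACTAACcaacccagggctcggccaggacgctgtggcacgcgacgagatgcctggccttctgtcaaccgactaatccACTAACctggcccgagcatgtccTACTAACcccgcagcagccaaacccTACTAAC
Malat1: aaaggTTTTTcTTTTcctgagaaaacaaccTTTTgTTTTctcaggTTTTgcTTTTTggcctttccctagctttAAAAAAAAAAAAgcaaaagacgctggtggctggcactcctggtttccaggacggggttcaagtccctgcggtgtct
Neat1: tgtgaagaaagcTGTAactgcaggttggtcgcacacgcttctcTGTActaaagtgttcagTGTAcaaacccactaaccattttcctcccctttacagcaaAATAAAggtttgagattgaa

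The repeat set Miat apart from the other members by sequence. On the transcript strand, ACTAAC occurs 11 times in the longest Miat transcript (1.2 per kb), 4 times in Neat1 (0.193 per kb) and 0 times in Malat1. Over 29758 longest transcripts of at least 1 kb the mean was 0.122 per kb, 28.7% held the motif at all, and 0.487% were at least as dense as Miat. TACTAAC, which contains ACTAAC and so overlaps with it, occurs 6 times in Miat, 1 time in Neat1 and 0 times in Malat1, and 7.67% of all these transcripts hold it. On the other strand Miat held neither motif, Neat1 held 4 ACTAAC and Malat1 held 1. A match is a description of letters and says nothing of binding in these cells.

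The libraries held 13010174 to 21617737 counts in fiber and 7658794 to 11819117 counts in epithelium. The labelled tissues fit their markers: 8 of 8 fiber markers, such as Mip, the fiber water channel, were higher in fiber, and 5 of 6 epithelium markers, such as Foxe3, a transcription factor of the lens epithelium, were lower, while Sfrp1, a Wnt inhibitor, was higher in fiber by 1.51, a call lost with library size alone (0.3) and without crystallins and Rn45s (0.91). Averaged over stages, 15.7% of all genes tested were higher in fiber and 22.2% lower. The 16 crystallin genes took 23.3% to 43.9% of the counts in fiber libraries and 1.66% to 4.28% in epithelium libraries. The ribosomal RNA precursor Rn45s took 3.98% to 28.9% in fiber and 5.29% to 17.4% in epithelium, with the top value in the second E18.5 fiber replicate. Levels below are therefore CPM, the counts scaled to a common library size with TMM, a method that assumes that most genes do not differ, and the TMM factors ran from 0.442 to 0.869 in fiber and from 1.41 to 1.58 in epithelium. For fiber against epithelium over all stages, the median gene stood at -0.03 under TMM, at -1.23 under library size alone and at -0.63 when crystallins and Rn45s were left out of the library size, so small differences between the tissues can turn with the scaling. In bulk samples such as these, fewer cells of a type and less RNA per cell cannot be told apart. The counting error of low values depends on the counts behind them. In the epithelium library with the fewest Neat1 counts, 319 counts make 0.00364% of the library. Its exact (Clopper-Pearson) 95% interval of 0.00325% to 0.00406% covers counting error only. Replicates can differ by more: in P0.5 epithelium the Neat1 share was 0.00751%, 0.00459% and 0.00433%.

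Malat1 was one of the largest single RNAs in both tissues. Its share of all counts averaged 7.88% ± 0.145 in E14.5 fiber, 7.3% ± 0.991 in E16.5 fiber, 5.45% ± 1.08 in E18.5 fiber and 5.2% ± 0.239 in P0.5 fiber (SD, n = 3). In epithelium it averaged 1.84% ± 0.225, 2.61% ± 0.222, 2.47% ± 0.293 and 2.67% ± 0.249 in stage order. By mean share, Malat1 came 2nd, 3rd, 4th and 3rd among all genes of fiber in stage order, behind Rn45s or the crystallins Cryaa and Cryba1. In epithelium it came 2nd at every stage, behind Rn45s. The fiber share was lower at the later stages, while the crystallins, which share the same total, took more of it. With Rn45s and the crystallins left out of the total, Malat1 took 11.4%, 11.7%, 10.6% and 9.94% of fiber counts from E14.5 to P0.5.

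**Figure D1:**
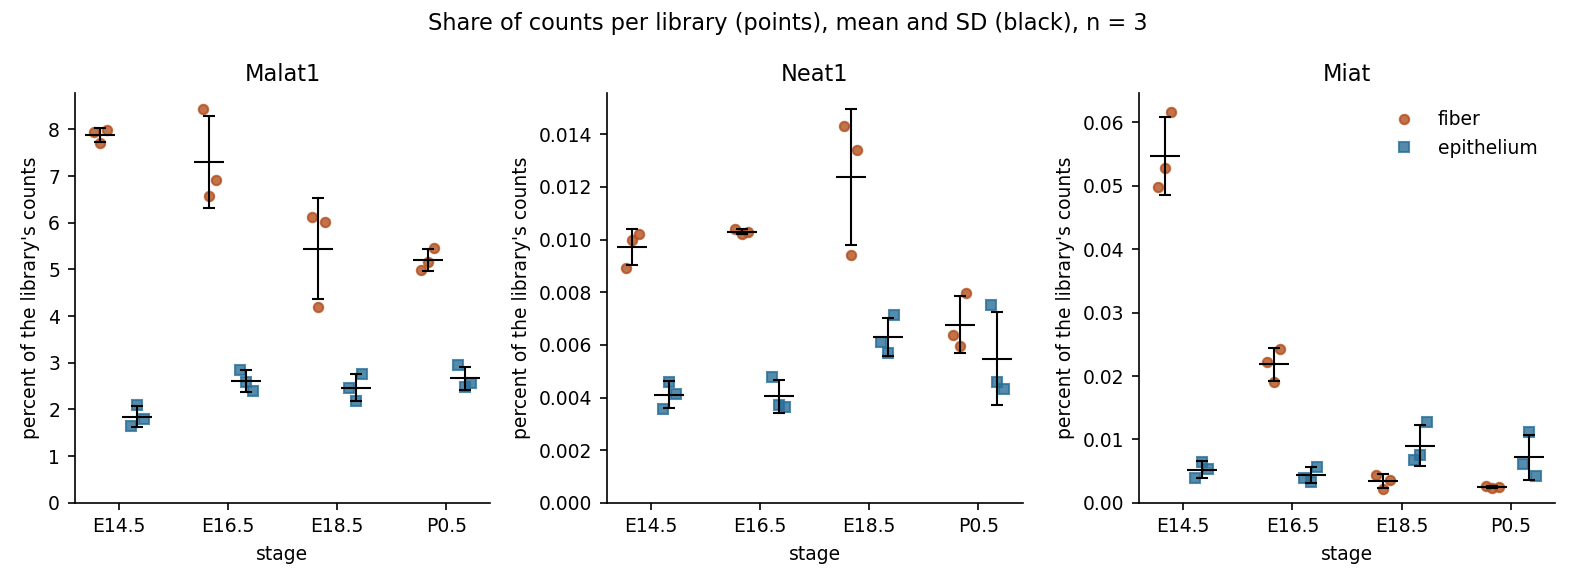
Share of each library's counts, in percent, taken by Malat1, Neat1 and Miat at the 4 stages. Points are libraries (fiber circles, epithelium squares) and black marks give the mean and SD of 3 libraries. Malat1 lies between 4.2% and 8.43% in fiber and between 1.65% and 2.95% in epithelium, and the Miat share of fiber falls below that of epithelium at E18.5 and P0.5.

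On the scaled level, Malat1 kept a high plateau in fiber at every stage. Fiber held 97201, 93756 and 91765 CPM at E14.5, 114247, 98653 and 93716 CPM at E16.5, 101474, 95077 and 97631 CPM at E18.5, and 87537, 88758 and 96867 CPM at P0.5. Epithelium held 11685, 13465 and 12380 CPM at E14.5, 18430, 17777 and 15790 CPM at E16.5, 15856, 14186 and 17524 CPM at E18.5, and 18817, 15820 and 16581 CPM at P0.5. The 4 fiber groups overlap one another and lie above all epithelium libraries. Within epithelium the E14.5 libraries lie below those of every later stage, which overlap among themselves. The described fiber to epithelium difference was 2.91 ± 0.12, 2.56 ± 0.12, 2.63 ± 0.12 and 2.42 ± 0.12 on the log2 scale from E14.5 to P0.5 (SE), or 6.19-fold averaged over stages. Of all genes tested, 33.3%, 35.0%, 41.6% and 42.0% differed between the tissues in either direction by the call rule at these stages. That rule asks for an adjusted p under 0.05 and at least 2-fold.

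Between stages Malat1 did not pass the rule in either tissue. In fiber the change from E14.5 to P0.5 was -0.05 on the log2 scale, with a 95% interval of -0.28 to 0.18 (edgeR quasi-likelihood test, adjusted p = 0.732), where 6.69% of genes were called higher and 5.24% lower. That change was -0.6 with library size alone (adjusted p = 0.00202), under 2-fold. The steps between neighbouring fiber stages were 0.12, -0.06 and -0.11. In epithelium P0.5 against E14.5 gave 0.45 ± 0.11 (1.36-fold, adjusted p = 0.00147), most of it in the step to E16.5 (0.47 ± 0.11, adjusted p = 0.00353, where 2.53% of genes passed in either direction), and both values are under the 2-fold bound. In epithelium 10.1% of genes were higher and 3.21% lower by the rule over the same period. The fiber to epithelium difference at P0.5 was smaller than that at E14.5 by 0.5 on the log2 scale (difference -0.5 ± 0.16, adjusted p = 0.014), again under 2-fold. With library size alone, in place of TMM, that value was -1.14 (adjusted p = 0.000146) and passed, and the fiber step from E14.5 to E16.5 turned to -0.11.

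**Figure D2:**
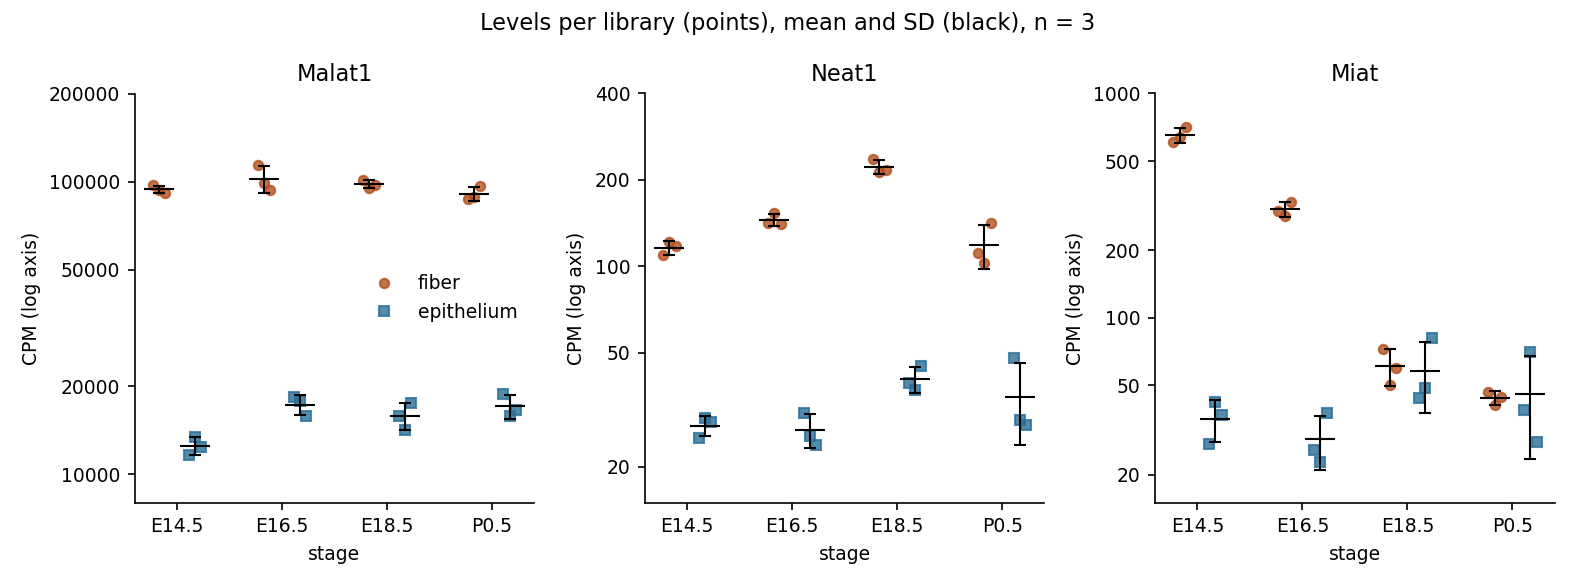
Levels of Malat1, Neat1 and Miat in CPM on log axes at the 4 stages. Points are libraries (fiber circles, epithelium squares) and black marks give the mean and SD of 3 libraries. Malat1 and Neat1 are higher in every fiber library than in any epithelium library of the same stage, while Miat overlaps between the tissues at E18.5 and P0.5.

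Neat1 was far less abundant and was highest in E18.5 fiber. Fiber held 109, 122 and 117 CPM at E14.5, 141, 153 and 140 CPM at E16.5, 237, 213 and 217 CPM at E18.5, and 112, 103 and 142 CPM at P0.5. Epithelium held 25.3, 29.7 and 28.6 CPM at E14.5, 30.9, 25.7 and 23.9 CPM at E16.5, 39.3, 37.0 and 45.1 CPM at E18.5, and 47.9, 29.2 and 28.0 CPM at P0.5. All E18.5 fiber libraries lie above those of every other group, the other 3 fiber stages form a chain in which neighbours in rank overlap, and all fiber libraries lie above all epithelium libraries. In P0.5 epithelium 1 library, replicate 1, stands above the other 2. The described fiber to epithelium difference was 2.05 ± 0.15, 2.44 ± 0.15, 2.46 ± 0.15 and 1.76 ± 0.15 from E14.5 to P0.5 (log2, SE), or 4.52-fold averaged over stages. At P0.5 it was 2.05 without that epithelium replicate.

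The E18.5 level of Neat1 stood above that of E16.5 in both tissues, by less than 2-fold. The step was 0.62 ± 0.13 in fiber (1.53-fold, adjusted p = 0.00189) and 0.6 ± 0.15 in epithelium (1.51-fold, adjusted p = 0.00465), and the difference between these steps was 0.02, with a 95% interval of -0.41 to 0.45 (adjusted p = 0.963). The fiber step with library size alone was 0.26 (adjusted p = 0.162) and the difference between the steps -0.38, and with crystallins and Rn45s left out of the library size they were 0.53 (adjusted p = 0.00421) and -0.09. From E18.5 to P0.5 the change was -0.91 ± 0.14 in fiber (1.88-fold lower, adjusted p = 0.000485) and -0.21, with an interval of -0.52 to 0.1, in epithelium (adjusted p = 0.367, where 1.01% of genes passed in either direction). The difference between the tissues in this last step was -0.7 ± 0.2, with an adjusted p of 0.113. None of these reached the rule. Without the third P0.5 fiber replicate, the fiber step from E18.5 to P0.5 was -1.06 (adjusted p = 0.000141) and passed, where 0.241% of genes were called lower. Over the whole period P0.5 fiber stood 0.03 above E14.5 fiber, with an interval of -0.25 to 0.32 (adjusted p = 0.868), and with library size alone this value was -0.52 (adjusted p = 0.00424).

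Miat was high in E14.5 and E16.5 fiber and low in every other group. Fiber held 609, 642 and 708 CPM at E14.5, 301, 285 and 329 CPM at E16.5, 73.0, 50.3 and 59.8 CPM at E18.5, and 46.8, 40.9 and 44.5 CPM at P0.5. Epithelium held 27.4, 42.0 and 37.0 CPM at E14.5, 25.8, 22.8 and 37.6 CPM at E16.5, 44.1, 48.7 and 81.0 CPM at E18.5, and 38.7, 70.5 and 27.9 CPM at P0.5. Fiber at E14.5 and fiber at E16.5 each stand clear of every other group, and fiber at E18.5 and P0.5 lies among the epithelium libraries. The described fiber to epithelium difference was 4.2 ± 0.26 at E14.5 (18.3-fold) and 3.41 ± 0.26 at E16.5 (10.7-fold). It was 0.09 at E18.5, with a 95% interval of -0.43 to 0.6, and -0.05 at P0.5, with an interval of -0.58 to 0.48. These last 2 values depend on the scaling and on single libraries. With library size alone they were -1.39 and -1.51, with crystallins and Rn45s left out of the library size -0.59 and -0.71, and without the second P0.5 epithelium replicate the P0.5 value was 0.4.

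Miat fell in fiber in each of the first 2 steps. From E14.5 to E16.5 it fell by 1.1 on the log2 scale (SE 0.23, 2.14-fold, edgeR adjusted p = 0.00136), where 1.61% of genes fell by the rule. From E16.5 to E18.5 it fell by 2.31 (SE 0.25, 4.97-fold, adjusted p = 3.18e-07), where 0.724% fell, and this was the 24th lowest log2 change of the 12427 genes. The last step, to P0.5, was -0.48 with an interval of -1.02 to 0.05 (adjusted p = 0.288). From E14.5 to P0.5 Miat fell by 3.89 (SE 0.26, 14.9-fold, adjusted p = 2.17e-11), the 19th lowest change, where 5.24% of genes fell. Leaving out each of the 24 libraries in turn gave -3.94 to -3.83 for the whole period, and all alternative scalings kept the fall, with library size alone giving -4.45.

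At E18.5 Miat rose in epithelium by 1.02 over its E16.5 level (SE 0.26, 2.02-fold, adjusted p = 0.00407), where 6.75% of genes rose by the rule. That call rests on single libraries. It was 0.95 without the first and 0.86 without the second E16.5 epithelium replicate, and 0.7 without the third E18.5 epithelium replicate, each under 2-fold. The other epithelium steps were -0.31 and -0.35, and P0.5 against E14.5 gave 0.35 with an interval of -0.17 to 0.88 (adjusted p = 0.237). Without the second P0.5 epithelium replicate this last value was -0.1.

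**Figure D3:**
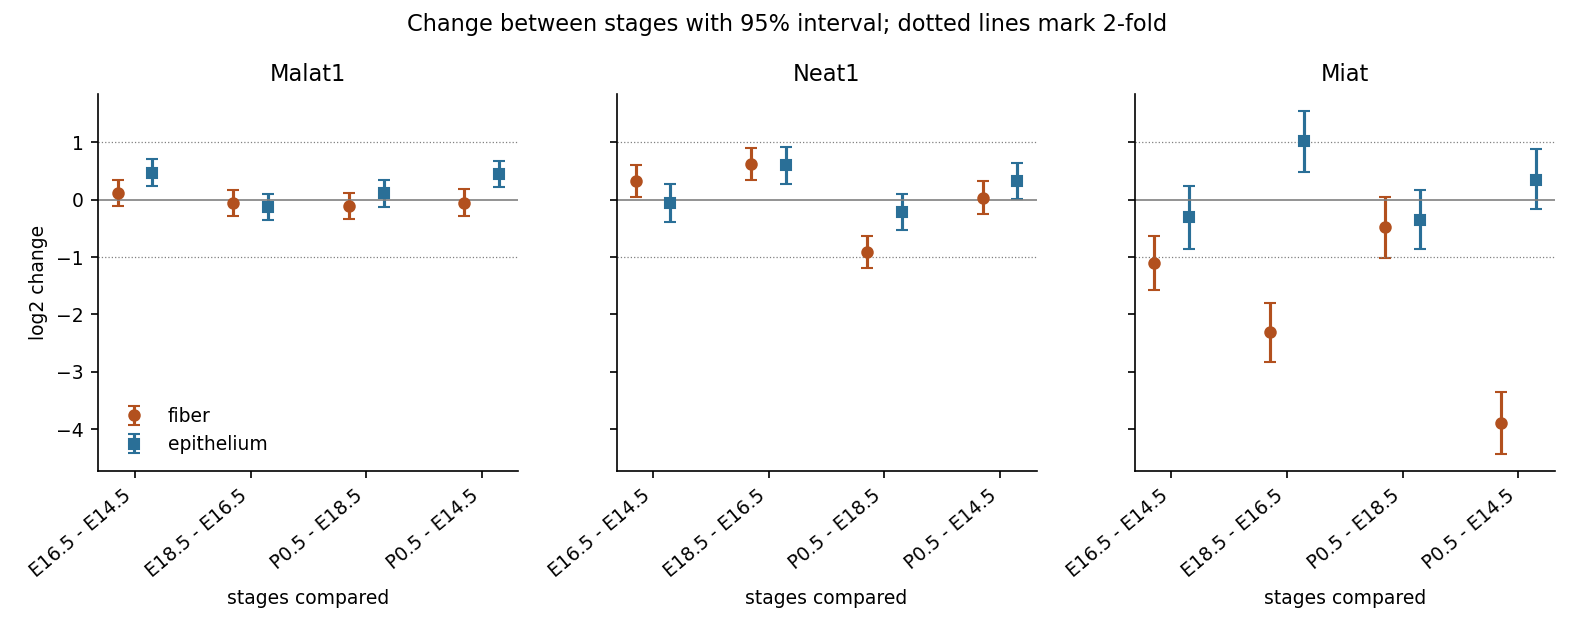
Log2 change between stages for Malat1, Neat1 and Miat, later over earlier, in fiber (circles) and epithelium (squares), with 95% intervals; dotted lines mark 2-fold. Miat in fiber lies at -1.1, -2.31, -0.48 and -3.89, and all values of Malat1 and Neat1 lie within 2-fold.

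The fiber to epithelium difference of Miat narrowed with stage. Its change from E14.5 to P0.5 was -4.25 ± 0.36 on the log2 scale (edgeR interaction test, adjusted p = 3.96e-09), where 7.92% of genes had a lower difference by the rule. Split into steps, it was -0.78 ± 0.35 from E14.5 to E16.5 (adjusted p = 0.172, where 0.998% of genes were called lower), -3.33 ± 0.36 from E16.5 to E18.5 (adjusted p = 7.01e-07, where 4.35% of genes were called lower) and -0.14 ± 0.36 from E18.5 to P0.5 (adjusted p = 0.922, where 0.0966% passed in either direction). The change was -0.5 for Malat1 and -0.29 for Neat1 over the same period (interval -0.72 to 0.13, adjusted p = 0.265), and with library size alone that of Neat1 was -0.94 (adjusted p = 0.000851), under 2-fold. Only the E16.5 to E18.5 step thus passed for Miat in the TMM fit, and with library size alone the first step passed as well, at -1.05 (adjusted p = 0.048).

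Per length of exon, the order of the RNAs in fiber changed with stage. Malat1 stood at 13000 to 14600 CPM per kb in fiber and at 1790 to 2480 CPM per kb in epithelium. Miat stood at 70.3, 32.8, 6.57 and 4.74 CPM per kb in fiber from E14.5 to P0.5, and at 3.09 to 6.23 CPM per kb in epithelium. Neat1 stood at 5.59, 6.98, 10.7 and 5.71 CPM per kb in fiber and at 1.29 to 1.95 CPM per kb in epithelium. By these means Miat lay above Neat1 in E14.5 and E16.5 fiber and below it in E18.5 and P0.5 fiber, with overlapping libraries at P0.5, while in epithelium the Miat mean was above the Neat1 mean at all stages. The Neat1 value uses the length of the long isoform and is too low by an unknown amount where the counts come from the short one.

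Ratios within a library do not depend on its scaling and gave the same order. The log2 ratio of Malat1 to Miat counts in fiber was 7.18 ± 0.15, 8.39 ± 0.21, 10.67 ± 0.22 and 11.01 ± 0.13 from E14.5 to P0.5 (SD, n = 3), and in epithelium it ranged over stages from 8.14 to 9.27. In counts, fiber held 2070 Malat1 for each Miat at P0.5 and 145 at E14.5. The log2 ratio of Neat1 to Miat in fiber was -2.49 ± 0.1, -1.07 ± 0.17, 1.88 ± 0.19 and 1.42 ± 0.22 in stage order, and its group means in epithelium lay between -0.47 and -0.07. The log2 ratio of Malat1 to Neat1, the neighbours on chromosome 19, was lowest at E18.5 in both tissues, at 8.79 ± 0.04 in fiber and 8.61 ± 0.04 in epithelium, and lay between 9.46 and 9.67 at the other fiber stages. The libraries of E14.5 and E16.5 fiber do not overlap with those of E18.5 and P0.5 fiber in either ratio to Miat. With 3 libraries in each group the smallest two-sided p of an exact permutation test is 0.1, so no test is given for single ratios.

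**Figure D4:**
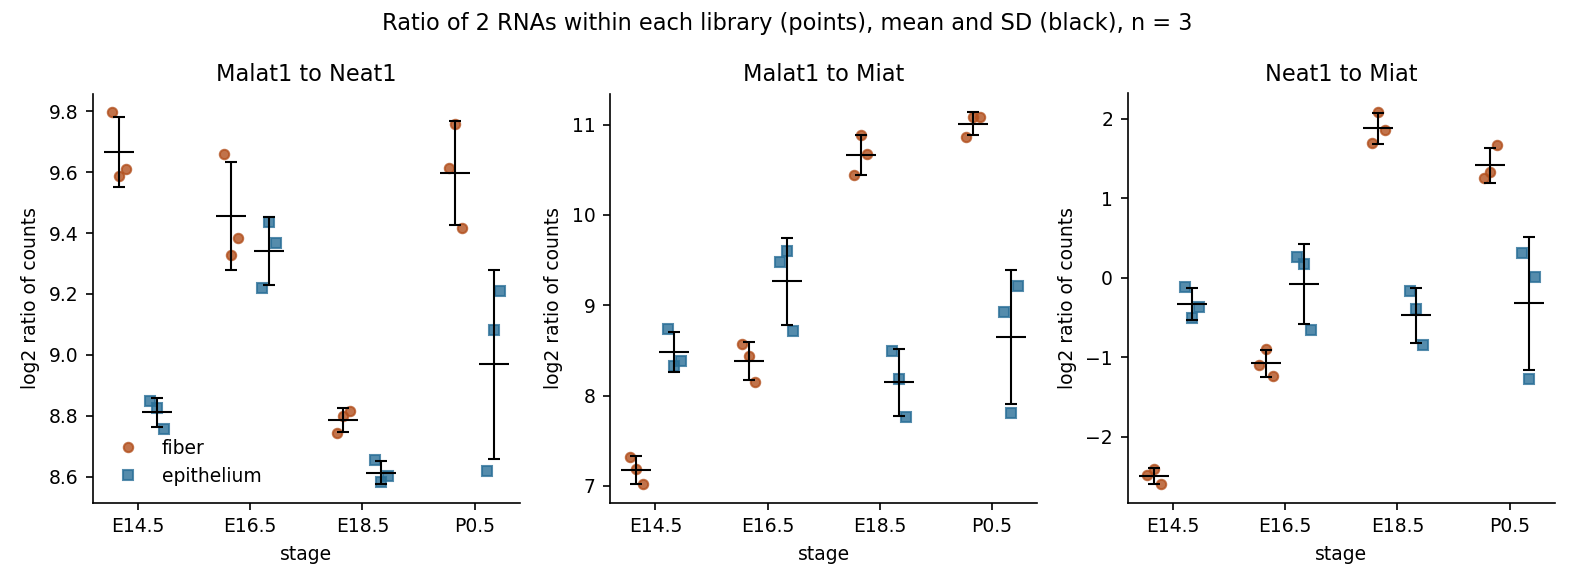
Log2 ratio of the counts of 2 RNAs within each library: Malat1 to Neat1, Malat1 to Miat and Neat1 to Miat, in fiber (circles) and epithelium (squares) at the 4 stages, with mean and SD of 3 libraries in black. Both ratios to Miat climb in fiber between E14.5 and E18.5, by more than the spread of the libraries, while the epithelium means stay between 8.14 and 9.27 and between -0.47 and -0.07.

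Markers of other cell types were read beside Miat, because Miat is known from the retina. Of 12 retina markers 10 are in the table, and their summed level in fiber was 23.4 to 25.5 CPM at E14.5, 30.3 to 39.0 at E16.5, 27.9 to 35.6 at E18.5 and 34.3 to 38.7 at P0.5. Elavl4, a neuronal RNA-binding protein, made up much of this sum, with 11.9, 19.3, 19.1 and 23.8 CPM in stage order. The other 9 markers together averaged 12.5, 16.7, 12.6 and 12.5 CPM. Rax, a transcription factor of retinal progenitors, averaged at most 0.749 CPM in any fiber group. Every retina marker in the table had counts in each fiber library, except that 1 was at 0 in a single E14.5 library. By edgeR 0 of the 10 passed between E16.5 and E14.5 fiber, and 0 between E18.5 and E16.5 fiber, with 1 in each step at an unadjusted p under 0.05. In these steps 1.61% and 0.724% of all genes were called lower. From E14.5 to P0.5, 1 of the 10 fell in fiber, beside 5.24% of all genes. This was Atoh7, a transcription factor of retinal ganglion cell precursors, which fell by 1.62 (edgeR adjusted p = 0.0312) at levels under 1 CPM. In epithelium the retina sum was 11.3 to 21.0 CPM at E14.5 and 17.4 to 31.9 at E16.5, then 97.8, 97.9 and 157 CPM at E18.5 and 96.7, 127 and 83.8 CPM at P0.5. At every stage the epithelium library with the highest sum also had the highest Miat (21 and 42 CPM at E14.5, 31.9 and 37.6 CPM at E16.5). Within E18.5 and within P0.5 the full order of the 3 libraries is the same, and within E14.5 and within E16.5 it is not. At E18.5 against E16.5 in epithelium 7 of 10 retina markers rose, such as Rax by 3.22, beside 6.75% of all genes. In the same step 6 of 7 pigment cell markers rose, whose sum averaged 204 CPM at E18.5 and 35.1 at E16.5. The part of these markers in the values of Miat, in either tissue, was not tested.

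Some markers of mesenchyme, red cells and endothelium also fell in fiber over the stages in which Miat fell. Of 7 mesenchyme markers 5 fell in fiber from E14.5 to P0.5, beside 5.24% of all genes. Summed over the 7 markers, fiber averaged 107, 72.6, 52.6 and 39.3 CPM in stage order. Most of this sum was Pdgfra, a growth factor receptor, with 94.3, 61, 47.4 and 37 CPM, and the other 6 markers averaged 12.2, 11.6, 5.13 and 2.29 CPM. Pdgfra was abundant in the epithelium libraries too, with 577 CPM at E14.5. Of 7 red cell markers 4, the adult globins, were at 0 in every library, so no statement on them is made. The other 3 fell, beside the same 5.24% of all genes. Their sum averaged 30.9, 4.95, 1.36 and 0.663 CPM, of which the embryonic globin Hbb-y made 23.6 CPM at E14.5. Alas2, an enzyme of heme synthesis, made 2.62, 4.06, 1.29 and 0.627 CPM of it in stage order. Of 8 endothelium markers 1 fell, again beside 5.24% of all genes. This was Tek, a receptor of endothelial cells, which fell by 1.36 (edgeR adjusted p = 9.36e-10). The other 7 together averaged 6.74 CPM in P0.5 fiber and 8.82 CPM in E14.5 fiber. In E14.5 epithelium the same lists averaged 693, 239 and 389 CPM for mesenchyme, red cells and endothelium, and Miat averaged 35.5 CPM. Most of that mesenchyme value was Pdgfra. The part of these markers in the Miat values of either tissue, or in its fall in fiber, was not tested.

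**Figure D5:**
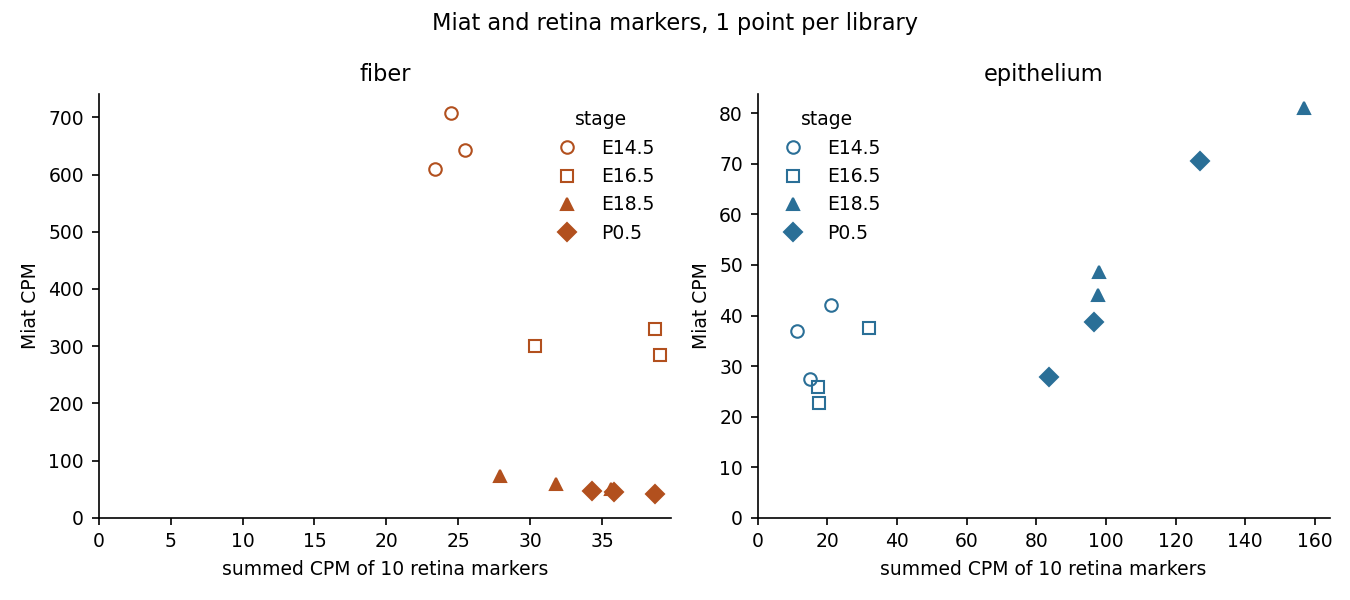
Miat in CPM (y axis) and the summed CPM of 10 retina markers (x axis), 1 point per library, with a symbol for each stage, for fiber (left) and epithelium (right) on separate axes. In fiber the E14.5 libraries have the highest Miat values at sums of 23.4 to 25.5 CPM, which are lower than at later stages mainly through Elavl4, and in epithelium the 2 highest Miat values lie in the 2 libraries with the highest sums, 157 and 127 CPM.

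The proteins that build paraspeckles with Neat1 were not higher in fiber by the rule, and most of them lay somewhat lower. Of 29 paraspeckle proteins, 0 were higher and 1 was lower in fiber averaged over stages by edgeR, beside 15.7% and 22.2% of all genes. DESeq2 gave the same counts for the list. At an unadjusted p under 0.05, whatever the fold, 5 of the 29 were higher and 22 lower, beside 44.1% and 46.5% of all genes. The 1 called lower was Hnrnpa1, an RNA-binding protein, at -1.19 ± 0.09 (edgeR adjusted p = 4.65e-12). The median difference of the list was -0.39, beside -0.03 for all genes. Sfpq, Pspc1 and Rbm14, core paraspeckle proteins, differed by -0.93, -0.91 and -0.8, under 2-fold, and Nono, the partner of Sfpq, by -0.02. Sfpq averaged 268 ± 13.1 CPM in E14.5 fiber and 491 ± 6.23 CPM in E14.5 epithelium. Cpsf6 and Nudt21, subunits of the cleavage factor that favours short Neat1, differed by -0.71 and 0.06, and Hnrnpk, which favours the long isoform, by -0.06. In fiber from E14.5 to P0.5, 1 of 29 rose and 0 fell by edgeR, beside 6.69% and 5.24% of all genes. DESeq2 gave the same counts for the list. At an unadjusted p under 0.05, whatever the fold, 4 of the 29 were higher and 16 lower at P0.5, beside 29.4% and 29.7% of all genes. The 1 that rose was Cirbp, a cold-inducible RNA-binding protein, at 1.25 ± 0.15 (adjusted p = 2.24e-07; 0.71 and under 2-fold with library size alone), and Cirbp rose in epithelium as well, by 1.61. Hnrnph3, a splicing regulator, had a higher fiber to epithelium difference at P0.5 than at E14.5 by 1.17 ± 0.12 (adjusted p = 9.24e-08), where 3.77% of genes were called higher, and by 0.53 with library size alone.

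Of 30 speckle and splicing proteins 0 passed between fiber and epithelium averaged over stages, beside 15.7% of all genes higher and 22.2% lower. Between P0.5 and E14.5, 0 passed in either tissue. By the rule 6.69% of all genes rose and 5.24% fell in fiber over that period, and 10.1% and 3.21% in epithelium. These calls are by edgeR, and DESeq2 gave 0 of the 30 as well. At an unadjusted p under 0.05, whatever the fold, 6 were higher and 16 lower in fiber than in epithelium, and 2 were higher and 23 lower at P0.5 than at E14.5 in fiber and likewise in epithelium. The same p was reached by 44.1% of all genes with a higher level in fiber than in epithelium and 46.5% with a lower one. For P0.5 against E14.5 these shares were 29.4% and 29.7% in fiber and 32.1% and 30.5% in epithelium. Their median differences were -0.14 for fiber against epithelium and -0.2 for P0.5 against E14.5 in fiber. Son and Srrm2, the large proteins that form the speckle core, differed between fiber and epithelium by 0.6 and 0.08 (-0.61 and -1.12 with library size alone), and Srsf1, a splicing factor known to bind Malat1, by -0.49. With library size alone, 27 of the 30 speckle proteins and 27 of the 29 paraspeckle proteins were called lower in fiber, and with crystallins and Rn45s left out of the library size 9 and 13 were. The median of all genes was -1.23 and -0.63 under these scalings, so all genes moved down with the scaling as well. Beside it, the list medians were -1.34 and -0.74 for speckle proteins and -1.6 and -0.99 for paraspeckle proteins. The share of all genes called lower under these scalings is not given here, so the counts have no background.

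Among the factors that cut, protect or bind these RNAs, 11 of the 14 listed could be tested. Averaged over stages, 0 of the 11 passed between fiber and epithelium by edgeR, beside 15.7% of all genes higher and 22.2% lower. DESeq2 gave 0 of the 11 as well. At an unadjusted p under 0.05, whatever the fold, 8 were higher and 3 lower in fiber, beside 44.1% and 46.5% of all genes. Under library size alone 0 were higher and 11 lower at that p, with 3 called lower, and without crystallins and Rn45s 0 and 7, with 2 called lower. All genes had a median of -1.23 and -0.63 under these scalings. Elac2, the nuclease that trims the tRNA-like RNA of Malat1, differed by 0.41, and Mettl16, which binds the Malat1 triple helix, by 0.23, and both turned negative with library size alone (-0.8 and -0.98) and without crystallins and Rn45s (-0.2 and -0.38). Sf1 and Qk, known to bind the Miat repeat, differed by -0.12 and 0.32, the second turning to -0.89 and -0.28 under these scalings. In fiber from E14.5 to P0.5, the period in which Miat fell by 3.89, they differed by -0.02 and -0.12. Celf3, another binder of the repeat, has no row in the table used here. In fiber from E14.5 to P0.5, 0 of 11 rose and 2 fell by edgeR, beside 6.69% and 5.24% of all genes, and DESeq2 gave the same counts. By edgeR 3 were higher and 4 lower at an unadjusted p under 0.05, beside 29.4% and 29.7% of all genes. The 2 that fell were both subunits of the RNase P family: Pop1, at -1.02 ± 0.09 (edgeR adjusted p = 2.91e-09), and Rpp40, at -1.04 ± 0.31 (adjusted p = 0.00619). Both lie close to the 2-fold bound, and with DESeq2 size factors in edgeR 1 of them passed. Leaving out 1 library left 0 or 1 of these calls for 6 of the 24 libraries, namely each of the E14.5 and P0.5 fiber replicates.

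Other long and nuclear noncoding RNAs did not share 1 direction. Of 50 listed, 39 were tested, and averaged over stages 7 (17.9%) were higher in fiber and 4 (10.3%) lower, beside 15.7% and 22.2% of all genes. Snhg12, a host gene of small nucleolar RNAs, was higher by 3.57 ± 0.08 (adjusted p = 4.92e-22), with 155 ± 19.9 CPM in E14.5 fiber and 13.5 ± 0.746 CPM in E14.5 epithelium. Rmst, a noncoding RNA known from neural progenitors, was higher by 3.43 ± 0.1 (adjusted p = 6.05e-20). Meg3, a maternally expressed imprinted RNA, was higher by 1.54, a call lost with library size alone (0.34) and without crystallins and Rn45s (0.94). Airn, a paternally expressed imprinted RNA, was lower, with a log2 difference of -1.95 ± 0.09. Snhg4 and Snhg5, also host genes of small nucleolar RNAs, differed by -1.52 and -1.12. With library size alone the split of the list was 3 higher and 23 lower, and with crystallins and Rn45s left out of the library size 4 and 12. Under these scalings the median of all genes was -1.23 and -0.63.

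With stage, H19 fell in both tissues. H19, an imprinted RNA of fetal tissues, averaged 5280 ± 293, 3700 ± 251, 1570 ± 554 and 1110 ± 48.1 CPM in fiber from E14.5 to P0.5, and 2300 ± 106, 1710 ± 123, 766 ± 219 and 394 ± 114 CPM in epithelium. It fell by 2.25 in fiber (adjusted p = 4.49e-09) and by 2.55 in epithelium (adjusted p = 6.18e-10). In fiber from E14.5 to P0.5, 6 of the 39 (15.4%) rose and 3 (7.69%) fell, beside 6.69% and 5.24% of all genes. Without the first P0.5 fiber replicate 1 fell. Rian and Meg3, which are made from 1 imprinted cluster, rose by 2.71 ± 0.49 and 2.65 ± 0.47, though the P0.5 fiber libraries differed widely, at 213 ± 147 CPM for Meg3. Rmrp, the RNA of RNase MRP, rose by 1.37 in fiber (0.83 and under 2-fold with library size alone). Kcnq1ot1, another imprinted RNA, fell by 1.05. In epithelium 6 (15.4%) rose and 3 (7.69%) fell, beside 10.1% and 3.21% of all genes. Rmst was the largest rise there, of 3.07 ± 0.22, and Pvt1 fell by 2.54. Rmst, which was high in all fiber groups (540 to 757 CPM), thus had a lower fiber to epithelium difference at P0.5 than at E14.5, by -2.58 ± 0.28 (adjusted p = 1.63e-07). Its epithelial rise came at E18.5 (206 ± 37.4 CPM, against 30.2 ± 12.4 CPM at E16.5), the step in which the retina and pigment markers rose there. The part of these markers in the rise of Rmst was not tested.

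Genes next to the members went in both directions. Of 12 neighbours of Malat1 other than Neat1 within 150 kb, 1 was higher in fiber and 3 were lower averaged over stages, beside 15.7% and 22.2% of all genes. Sssca1 was higher by 1.02, but differed by -0.18 with library size alone. Ltbp3, which binds latent TGF-beta, differed by -2.43, Pola2, a subunit of DNA polymerase alpha, by -2.64, and Tigd3 by -1.8. Rela, Sipa1, Pcnx3, Map3k11, Fam89b and Dpf2 did not pass. Capn1, a calcium-dependent protease 143.1 kb from Neat1, was higher in fiber by 1.09, but differed by -0.11 with library size alone. Frmd8, whose body lies 4.2 kb from that of Neat1, differed by -0.81 and fell short of 2-fold. Near Miat, Cryba4 and Crybb1 code for beta crystallins and lie 17.1 kb and 26.4 kb away. Averaged over stages both were higher in fiber than in epithelium, by 6.47 and 5.79, the same direction as Miat (1.91). With stage in fiber they ran opposite to Miat. Cryba4 averaged 9590, 11400, 18400 and 22000 CPM in fiber from E14.5 to P0.5, and rose by 1.2 (adjusted p = 2.29e-05), and Crybb1 rose by 1.27 (adjusted p = 9.29e-07). Tpst2, a tyrosylprotein sulfotransferase 47.3 kb away, rose in fiber by 1.46. With library size alone, the rises of Cryba4, Crybb1 and Tpst2 in fiber from E14.5 to P0.5 were 0.65, 0.72 and 0.91, under 2-fold. Tfip11, Srrd and Hps4 did not pass in either comparison.

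The patterns of the 3 RNAs over the 24 libraries, once the mean of each tissue was removed, had little in common. Pearson's r of log2 CPM was 0.366 for Malat1 and Neat1, 0.088 for Malat1 and Miat, and -0.168 for Neat1 and Miat, over 24 libraries that fall into 8 groups. These values and those that follow are descriptions with no test. Of 8574 genes compared, the 5 most like Miat were Ppp1r9a (r = 0.946), Atp2b1 (0.935), Ptpn13 (0.933), Tspan13 (0.927) and Abat (0.921). Ppp1r9a codes for neurabin, an actin-binding partner of protein phosphatase 1, and Atp2b1 for a calcium pump of the plasma membrane. Ppp1r9a averaged 97 ± 2.47, 74.2 ± 2.73, 50.2 ± 1.22 and 41.9 ± 2.63 CPM in fiber from E14.5 to P0.5, a smaller decline than that of Miat, and 91.9 to 119 CPM in epithelium. Within epithelium alone its r with Miat was 0.581, and within fiber alone 0.987.

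Malat1 and Neat1 had weaker matches. The genes most like Malat1 were Mbtps2 (r = 0.887), which codes for a protease that releases transcription factors from membranes, Gm14326 (0.836), Unc13b (0.803), Qsox1 (0.796) and Rhobtb2 (0.795). Within fiber alone the r of these 5 genes, in the order named, was 0.647, 0.824, 0.494, 0.641 and 0.527. Within epithelium alone it was higher for each, at 0.928, 0.862, 0.893, 0.824 and 0.881. Mbtps2 averaged 54.9, 58.6, 58.4 and 55 CPM in fiber and 30.7, 39.5, 36 and 40.1 CPM in epithelium in stage order, with the same low E14.5 epithelium group as Malat1. The genes most like Neat1 were Sh3kbp1 (0.832), Usp12 (0.815), Rreb1 (0.751), Ppm1l (0.751) and Dnmt3a (0.731). Sh3kbp1 codes for an adaptor of receptor endocytosis and Dnmt3a for a DNA methyltransferase. Dnmt3a shared the E18.5 peak in fiber, with 284 ± 5.48, 317 ± 3.44, 466 ± 9.71 and 320 ± 2.62 CPM in stage order, but its r with Neat1 within epithelium was 0.284. By Spearman's rho, 2 of the 5 genes for Malat1, 3 of the 5 for Neat1 and 2 of the 5 for Miat stayed among the first 5.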

How the data were processed

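The deposited table holds raw whole-number counts, with genes in rows and 24 libraries in columns. Per the submitters' processing notes, the build was mm10 and the tools were HTSeq 0.6.1, TopHat2 2.0.13, Trim Galore 0.4.1, Cufflinks 2.2.1 and Cuffdiff; their roles, the strand setting and the choice of rows are not given in the sources used here. Per the labels' protocols the libraries are stranded.

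Counts were filtered with filterByExpr of edgeR 4.0.16 (R 4.3.3; minimum count 10, minimum total 15), scaled with TMM and fitted with the quasi-likelihood model with 1 mean for each of the 8 groups, leaving 16 residual degrees of freedom and a biological coefficient of variation of 0.0821. P-values are two-sided and Benjamini-Hochberg adjusted over 12427 genes; a call needs an adjusted p under 0.05 and 2-fold. CPM errors are SD over 3 libraries. SE of log2 changes comes from the same test. They measure the spread between these libraries only. The fit was also run on counts simulated from its own estimates, with known changes set in P0.5 fiber only. That draw held no other tissue difference, so it says nothing on the scaling, and its outcome is not reported here. Annotation came from GENCODE M21, in which 12340 symbols (97.9%) match 1 gene.

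The members and gene lists were chosen with earlier results of these data known. Genes named are the members, partners named by role, up to 3 rises and 3 falls per list that passed and reached 10 CPM in the higher group, table genes within 150 kb of a member and the 5 of most like pattern; Rpp40 was named after its value was seen. A few listed genes are counted in their lists but not reported here by name. Likeness is Pearson's r of log2 CPM (prior count 2). Replicate numbers were checked for pairing: in 0 of 12 comparisons of 2 groups did every same-numbered pair correlate above 0.1. That rule is strict and cannot exclude pairing. The sources used here do not state whether fiber and epithelium of 1 number share animals, so numbers were not treated as pairs. Replicates were not copies (chi-square per degree of freedom 3.89 or more). Alternatives were other scalings, no filter, DESeq2 1.42.0, a replicate block, 1 tissue only and each library left out. After the data were seen, the library size without crystallins and Rn45s and the steps of the tissue difference and marker sums without their leading gene were added.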

Additional observations from a re-analysis of the deposited data

Results flagged for a closer look

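Miat was singled out because its fiber to epithelium difference differed between stages by a test of the difference itself. From E14.5 to P0.5 the difference changed by -4.25 on the log2 scale (edgeR interaction test, adjusted p = 3.96e-09). All 3 libraries of E14.5 fiber lay above all 3 of E14.5 epithelium, while P0.5 fiber and P0.5 epithelium overlapped. That separation is a description only, since Miat was picked with its higher level in fiber already known. Between E16.5 and E18.5, a step added after the stage values were seen, it changed by -3.33 (adjusted p = 7.01e-07). In that step Miat fell by 2.31 in fiber and rose by 1.02 in epithelium, where the retina and pigment markers rose too. Without any 1 of the 24 libraries these changes stayed between -4.51 and -3.79 and between -3.57 and -3.01.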

How the results depend on the processing

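The scaling was the choice that mattered most to the tissue difference. With library size only, fiber against epithelium at E14.5, E16.5, E18.5, P0.5 and averaged over stages was 2.1, 1.48, 1.14, 0.96 and 1.42 for Malat1, 1.24, 1.35, 0.97, 0.31 and 0.97 for Neat1, and 3.38, 2.33, -1.39, -1.51 and 0.71 for Miat. With library size without crystallins and Rn45s these were 2.4, 2, 1.96, 1.76 and 2.03 for Malat1, 1.54, 1.87, 1.78, 1.1 and 1.57 for Neat1, and 3.68, 2.85, -0.59, -0.71 and 1.31 for Miat. In the averaged comparison the median of all genes was -1.23 with library size only and -0.63 without crystallins and Rn45s, beside -0.03 with TMM. Small values turned round: with library size only, E16.5 against E14.5 in fiber for Malat1 (-0.11), P0.5 against E14.5 in fiber for Neat1 (-0.52) and the E16.5 to E18.5 change of the tissue difference for Malat1 (-0.34) and Neat1 (-0.38), and with crystallins and Rn45s left out the last 3 (-0.12, -0.04 and -0.09). With library size only, the change of the tissue difference passed for Malat1 from E14.5 to P0.5 (-1.14) and for Miat from E14.5 to E16.5 (-1.05). With Rn45s and crystallins out of the total, the fiber share was 10.9% for Malat1 and 0.0169% for Neat1. Of 312 values of the tested comparisons under settings other than leaving out a library, 303 kept their direction and their side of the rule. Fits with a replicate block changed no call of the 3 RNAs (Miat in fiber, P0.5 against E14.5, -3.89; change of its tissue difference -4.26), nor did DESeq2, DESeq2 size factors, no filter, or a fit of 1 tissue.

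Leaving out each library in turn kept 846 of 864 values. The ranges of the results that moved were 1.61 to 2.05 for Neat1 and -0.31 to 0.4 for Miat in fiber against epithelium at P0.5, 0.7 to 1.25 for Miat E18.5 against E16.5 in epithelium, -0.1 to 0.62 for Miat P0.5 against E14.5 in epithelium, -0.46 to 0.32 for the E18.5 to P0.5 change of the Miat tissue difference, -1.06 to -0.81 for Neat1 P0.5 against E18.5 in fiber, -0.12 to 0.13 for Neat1 P0.5 against E14.5 in fiber, -0.17 to 0.01 for Neat1 E16.5 against E14.5 in epithelium, -0.09 to 0.1 for the E16.5 to E18.5 change of the Neat1 tissue difference, -0.12 to 0.03 for Malat1 E18.5 against E16.5 in fiber, and -0.01 to 0.16 for the E16.5 to E18.5 change of the Malat1 tissue difference. The cause was not tested.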
